A study of Mus musculus with 16 samples.

Results

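The complement C1q genes C1qa, C1qb and C1qc and the macrophage genes Adgre1, Csf1r, Ptprc, Mrc1, Cd68, Lyz2 and Lgals3 were compared between whole mouse hearts of 4 genotypes at the loci of the muscle ring finger proteins MuRF1 and MuRF2. The 10 genes were found on the array by gene name, with the older symbols Emr1, Lyzs and C1qg included, among 27670 gene names in all. They had 17 probes. All 10 genes passed the filter on low values through 12 of these probes, and 5 probes were not well above background on any array. Hearts came from 12 week old, strain-matched mice, and 4 biological replicates of each of 4 genotypes were hybridised, 1 heart RNA per array. Double null hearts were MuRF1 -/- MuRF2 -/-, MuRF1 null MuRF2 het hearts were MuRF1 -/- MuRF2 +/-, MuRF1 het MuRF2 null hearts were MuRF1 +/- MuRF2 -/-, and wild type hearts were MuRF1 +/+ MuRF2 +/+. The labels give neither how the alleles were made nor the strain of the hearts. Heart RNA was read in Cy5 and a common pool, made from whole C57BL/6 mouse pups at postnatal day 1, in Cy3, so each level is the log2 ratio of heart to pup signal. The ratio of 1 gene can be compared between genotypes, but not the ratio of 1 gene with that of another.

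MuRF1 and MuRF2 are ubiquitin ligases of striated muscle, encoded by Trim63 and Trim55. C1q is the recognition protein of the classical complement pathway. It binds immune complexes and dying cells, is assembled from the A, B and C chains that C1qa, C1qb and C1qc encode, and is made largely by tissue macrophages. The heart holds resident macrophages between its muscle cells, which clear debris, and injury brings in monocytes that become macrophages. Csf1r is the receptor that macrophages need for survival, Adgre1 encodes the surface antigen F4/80, and Ptprc encodes CD45 of all leukocytes. Mrc1 is the mannose receptor of resident macrophages, Cd68 a lysosomal glycoprotein, Lyz2 lysozyme M, and Lgals3 galectin-3, a sugar-binding protein that macrophages release and that is studied as a marker of heart failure.

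The C1q genes lie side by side, and 3 upstream windows are shown: those of C1qb and C1qc, whose genes are neighbours, and that of Lgals3, the gene with the largest difference between double null and wild type hearts among the 10. In RefSeq GRCm38.p6 the cluster runs over 18.7 kb of chromosome 4, with C1qb at chr4:136880126-136886200, C1qc at chr4:136889801-136892936 and C1qa at chr4:136895916-136898844. Each window holds the 250 bases before a start in the RefSeq promoter table. The start used for C1qc lies within the gene range given above, so the C1qc window overlaps the end of that range. The C1qb window is chr4:136886201-136886450 (minus strand), the C1qc window chr4:136892915-136893164 (minus strand) and the Lgals3 window chr14:47373610-47373859 (plus strand). Capitals mark GAGGAA and GGAAGT, core sequences bound by PU.1, a myeloid factor, and by its ETS relatives, searched on both strands.
C1qb: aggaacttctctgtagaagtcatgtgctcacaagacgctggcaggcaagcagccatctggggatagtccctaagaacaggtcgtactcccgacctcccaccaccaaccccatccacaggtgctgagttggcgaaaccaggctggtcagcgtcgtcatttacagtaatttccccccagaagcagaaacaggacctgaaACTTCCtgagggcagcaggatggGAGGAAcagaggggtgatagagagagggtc
C1qc: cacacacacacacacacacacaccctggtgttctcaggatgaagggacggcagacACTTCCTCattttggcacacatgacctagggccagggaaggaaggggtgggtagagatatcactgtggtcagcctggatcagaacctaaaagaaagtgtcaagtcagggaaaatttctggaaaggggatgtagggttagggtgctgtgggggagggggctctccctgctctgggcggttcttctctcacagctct
Lgals3: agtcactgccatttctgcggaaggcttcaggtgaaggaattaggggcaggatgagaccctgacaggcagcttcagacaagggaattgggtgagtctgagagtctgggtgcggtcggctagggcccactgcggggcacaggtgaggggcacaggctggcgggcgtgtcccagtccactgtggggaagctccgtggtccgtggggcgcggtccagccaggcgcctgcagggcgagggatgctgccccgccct
The C1qb window held GAGGAA on the gene's strand and GGAAGT on the other. In the C1qc window both letter strings were on the opposite strand and overlapped in a single stretch. The Lgals3 window held neither. The count took in 8 windows of 7 of the 10 genes. C1qa and Adgre1 had no entry in the promoter table, and Csf1r was left out of the count. Of the 8 windows, 5 held GAGGAA and 6 held GGAAGT, beside 23.3% and 19.7% of all 32851 windows of that length. These matches are letters in a window and were not tested as binding sites.

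Array brightness differed between genotypes and bears on the values below. Cy5 was well above background for 6037 to 14503 probes on double null arrays, 6402 to 15067 on MuRF1 null MuRF2 het arrays, 16129 to 17391 on MuRF1 het MuRF2 null arrays and 15171 to 16664 on wild type arrays, and Cy3 for 22007 to 25197 probes on all 16. The dimmest arrays were double null 2 and MuRF1 null MuRF2 het 1. Slides 1 and 3 each held 2 double null and 2 wild type arrays, while all MuRF1 null MuRF2 het arrays were on slide 2 and all MuRF1 het MuRF2 null arrays on slide 4, so for those genotypes slide and genotype cannot be told apart. The MuRF1 het MuRF2 null arrays were also read with another version of the image software. The Trim63 ratio averaged -0.72 ± 0.27 in double null hearts and -0.64 ± 0.22 in MuRF1 null MuRF2 het hearts. It averaged 1.94 ± 0.21 in hearts labelled MuRF1 het MuRF2 null and 2.63 ± 0.09 in wild type hearts (SD, n = 4 each), so it was lowest where the labels give no MuRF1 allele. The 10 cardiomyocyte genes had a mean ratio of 3.67 to 4.30 on every array.

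None of the C1q chains passed the test in double null hearts (limma fit over all 12331 genes measured, Benjamini-Hochberg adjusted p under 0.05). C1qa had ratios of 0.78, 0.10, 0.38 and 0.43 in double null hearts, against 0.67, 0.35, 0.77 and 0.53 in wild type hearts. C1qb had ratios of 0.67, -0.19, 0.39 and 0.32 in double null hearts, against -0.01, 0.17, 0.50 and 0.22 in wild type hearts. C1qc had ratios of 0.29, 0.22, 0.21 and 0.22 in double null hearts, against 0.19, 0.23, 0.48 and 0.51 in wild type hearts. For each chain the genotypes overlapped, and the lowest C1qa and C1qb values came from double null 2, the dim array, on which neither gene was well above background. The log2 differences of double null from wild type were -0.16 for C1qa (95% interval -0.45 to 0.14), 0.08 for C1qb (-0.23 to 0.38) and -0.12 for C1qc (-0.33 to 0.09). Their adjusted p were 0.432, 0.722 and 0.400. When each array was centred on its median in place of the loess curve, which moved the median of all genes to -0.49, C1qa and C1qc passed as lower (adjusted p 0.0140 and 0.0219).

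Among hearts with 1 remaining MuRF allele, C1qc was the only chain that passed with loess, in MuRF1 het MuRF2 null hearts. In MuRF1 null MuRF2 het hearts the ratios were 0.58, 0.76, 0.72 and 0.26 for C1qa, 0.30, 0.41, 0.38 and 0.36 for C1qb, and 0.34, 0.53, 0.46 and 0.05 for C1qc. All 3 ranges overlapped those of wild type, and the differences were -0.00 ± 0.14, 0.14 ± 0.14 and -0.01 ± 0.10 (SE). With median centring C1qa at -0.60 and C1qc at -0.96 passed as lower there (adjusted p 0.0319 and 0.0325), with the median of all genes at -0.51. In MuRF1 het MuRF2 null hearts C1qc had ratios of -0.01, -0.14, -0.04 and -0.03, all below the lowest wild type value. C1qc fell by 0.41 ± 0.10 on the log2 scale there, or 1.33-fold, with a limma adjusted p of 0.0499. That call sits at the threshold: leaving out any single array lost it (adjusted p 0.0570 to 0.161). It was also lost with median centring (-0.87, adjusted p = 0.0852), with the Feature Extraction ratio (adjusted p = 0.430) and with Cy5 alone (-0.13, adjusted p = 0.708). C1qa at 0.50, 0.37, 0.53 and 0.28 and C1qb at 0.33, 0.13, 0.25 and 0.15 overlapped wild type, with differences of -0.16 ± 0.14 and -0.00 ± 0.14. A difference between the chains was not tested.

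Adgre1 and Csf1r, markers of the macrophage lineage itself, did not pass as higher than wild type in any mutant group, and passed as lower in some settings. Adgre1 had ratios of 0.41, 0.35, 0.39 and 0.28 in double null hearts, 0.29, 0.47, 0.30 and 0.19 in MuRF1 null MuRF2 het hearts, 0.09, -0.04, -0.05 and -0.16 in MuRF1 het MuRF2 null hearts, and 0.39, 0.18, 1.13 and 0.63 in wild type hearts. Wild type 3 stood above the rest, and the MuRF1 het MuRF2 null values were the only ones wholly below the wild type range. Adgre1 fell by 0.62 ± 0.15 on the log2 scale (1.54-fold) in MuRF1 het MuRF2 null against wild type hearts, with a limma adjusted p of 0.0390. Without wild type 3 the difference was -0.44 and the call was lost, and only 1 of the 8 fits that left out an array kept it. It passed with median centring (adjusted p = 0.0154), but not with Cy5 alone (0.0686) or the Feature Extraction ratio (0.236). Adgre1 did not pass in the other mutants with loess, but with median centring it was -0.88 in double null and -0.90 in MuRF1 null MuRF2 het hearts (adjusted p 0.0138 and 0.0172). The medians of all genes were -0.49 and -0.51 there, and relative to each Adgre1 was -0.39. A second Adgre1 probe was never well above background. Csf1r had ratios of -0.31, -0.02, -0.17 and -0.42 in double null hearts, -0.12, -0.00, -0.20 and -0.38 in MuRF1 null MuRF2 het hearts, -0.23, -0.18, -0.32 and -0.13 in MuRF1 het MuRF2 null hearts, and -0.20, -0.14, 0.24 and -0.03 in wild type hearts. The groups overlapped, and wild type 3 was again the highest array. Csf1r differed from wild type by -0.20 ± 0.11 in double null hearts, by -0.14 ± 0.11 in hearts null for MuRF1 and het for MuRF2, and by -0.18 ± 0.11 in those het for MuRF1 and null for MuRF2, with adjusted p of 0.203, 0.440 and 0.465. A second Csf1r probe that passed the filter gave -0.05, -0.16 and -0.20 for the same comparisons. With median centring Csf1r passed as lower in double null hearts (-0.82, adjusted p = 0.00690) and in MuRF1 null MuRF2 het hearts (-0.75, adjusted p = 0.0144), and with the Feature Extraction ratio in double null hearts (-0.63, adjusted p = 0.0327). The medians of all genes were -0.49, -0.51 and -0.18 in these fits. Relative to the first 2, Csf1r was -0.33 and -0.24.

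**Figure D1:**
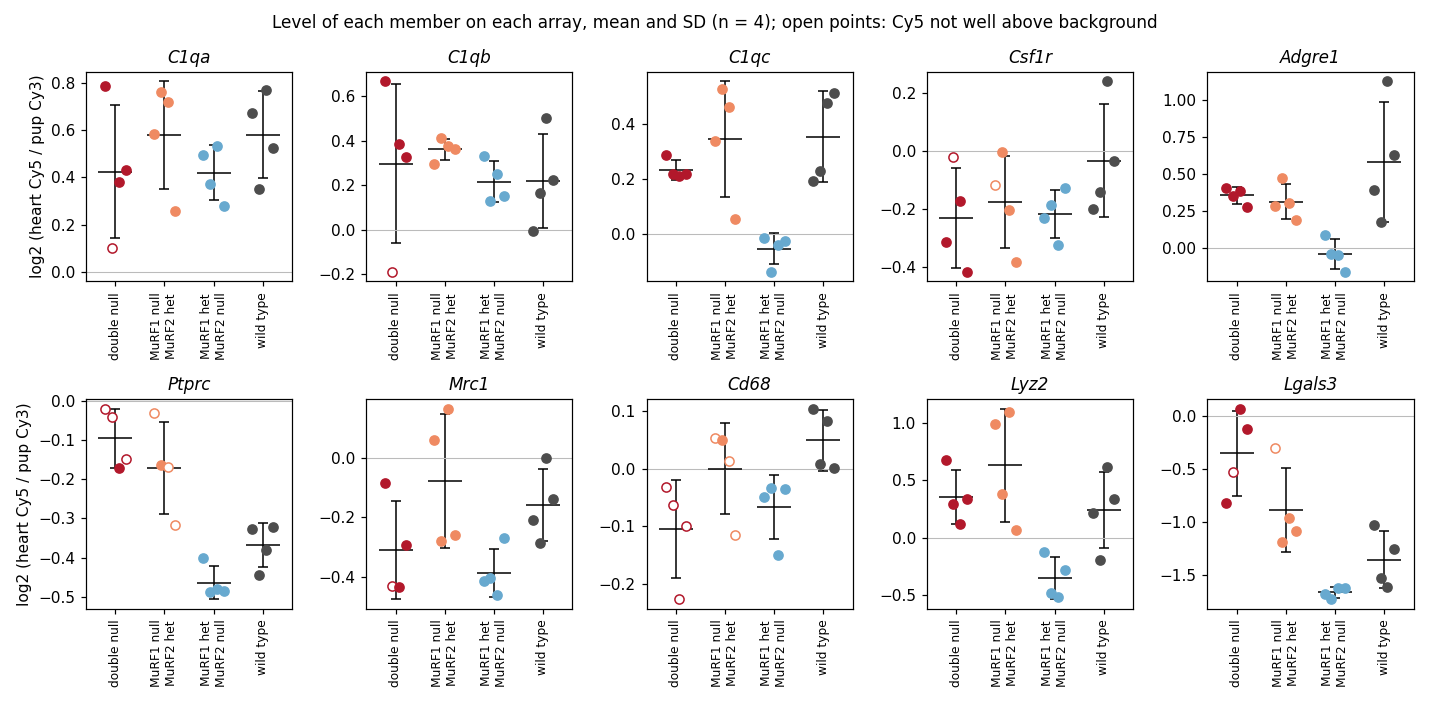
Log2 ratio of heart to pup signal for each of the 10 genes on each of the 16 arrays, by genotype, with mean and SD (n = 4). Filled points had Cy5 well above background. Lgals3 lies higher on all 4 double null arrays, between -0.81 and 0.07, than on the wild type arrays, between -1.61 and -1.02, and the Ptprc values of double null hearts are mostly open points.

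Lgals3 had the largest difference between double null and wild type hearts among the 10 genes. Its ratios were -0.81, -0.53, 0.07 and -0.12 in double null hearts, -0.30, -1.19, -0.96 and -1.08 in MuRF1 null MuRF2 het hearts, -1.68, -1.72, -1.62 and -1.62 in MuRF1 het MuRF2 null hearts, and -1.02, -1.52, -1.61 and -1.25 in wild type hearts. Every double null array lay above every wild type array, while the MuRF1 null MuRF2 het arrays overlapped both groups, with array 1 (not well above background) the highest of its 4. Cy5 for Lgals3 was well above background on 3 of 4 double null arrays, against 4 of 4 wild type arrays. Lgals3 was 1.01 ± 0.20 higher in double null than in wild type hearts, a 2.01-fold difference (95% interval 0.58 to 1.43; limma adjusted p = 0.00334). The difference passed in all 8 fits that left out 1 array (0.87 to 1.16). It was 0.60 within slide 1, where 2 arrays against 2 gave 0 passing genes of any kind, and 1.41 within slide 3, where it passed, and the difference between slides was not tested. Median centring lowered it to 0.27 (adjusted p = 0.377), with the median of all genes at -0.49, so that relative to all genes Lgals3 was 0.77 higher. With Cy5 alone it was 0.57 (adjusted p = 0.124).

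Ptprc, the only pan-leukocyte member, was a call near background. It had ratios of -0.02, -0.04, -0.17 and -0.15 in double null hearts, -0.03, -0.16, -0.17 and -0.32 in MuRF1 null MuRF2 het hearts, -0.40, -0.49, -0.48 and -0.49 in MuRF1 het MuRF2 null hearts, and -0.33, -0.44, -0.38 and -0.32 in wild type hearts. All double null values were above all wild type values, but just 1 of the 4 double null arrays, and 1 of the 4 MuRF1 null MuRF2 het arrays, had Cy5 well above background, against 4 of 4 in the other groups. Ptprc was 0.27 ± 0.07 higher in double null than in wild type hearts (limma adjusted p = 0.0164). With median centring the difference turned to -0.06, with the median of all genes at -0.49. Relative to all genes Ptprc was then 0.44 higher. With Cy5 alone the Ptprc difference was 0.04. Without wild type 2 the adjusted p was 0.0526. Over the 16 arrays its ratio fell as the number of detected probes rose (Pearson r = -0.84, Spearman rho = -0.90, and r = -0.83 without the 2 arrays farthest from the median brightness), also within genotypes (r = -0.62). The same held for Lgals3 over all arrays (r = -0.71, rho = -0.85, and r = -0.71 without those 2), with r = -0.30 within genotypes. With the number of detected probes as a covariate, Lgals3 was 0.83 higher in double null than in wild type hearts (adjusted p = 0.0240) and Ptprc 0.18 higher (adjusted p = 0.141). Without the dimmest arrays the differences were 1.07 and 0.25, and both passed.

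**Figure D2:**
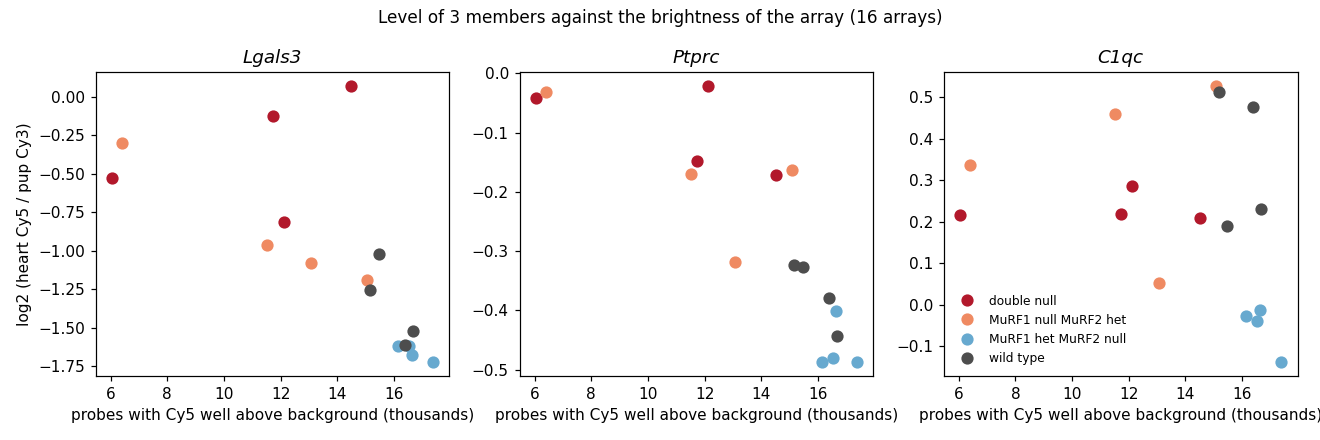
Log2 ratio of Lgals3, Ptprc and C1qc on each of the 16 arrays against the number of probes with Cy5 well above background, coloured by genotype. Across the 16 arrays r is -0.71 for Lgals3, -0.84 for Ptprc and -0.29 for C1qc, and the 4 MuRF1 het MuRF2 null arrays are the lowest for C1qc.

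Neither Lyz2 nor Mrc1 passed against wild type, and their ratios ran together over the 16 arrays (r = 0.84, rho = 0.72, and r = 0.89 within genotypes), the highest r among pairs of the 10 genes. Lyz2 had ratios of 0.68, 0.30, 0.12 and 0.34 in double null hearts, 0.99, 0.38, 1.09 and 0.07 in MuRF1 null MuRF2 het hearts, -0.12, -0.48, -0.51 and -0.28 in MuRF1 het MuRF2 null hearts, and 0.21, -0.19, 0.61 and 0.34 in wild type hearts. Wild type 2 overlapped the MuRF1 het MuRF2 null range, and the remaining genotypes overlapped widely. Against wild type Lyz2 differed by 0.12 ± 0.21, 0.39 ± 0.21 and -0.59 ± 0.21 in the 3 mutant groups, with adjusted p of 0.716, 0.268 and 0.162. With median centring these were -1.36, -1.15 and -1.26, so the first 2 changed sign, and none passed. The medians of all genes were then -0.49, -0.51 and -0.34. A second, dimmer Lyz2 probe gave -0.22, -0.10 and -0.12, so the 2 probes disagree in sign for double null and MuRF1 null MuRF2 het hearts. Lyz1, lysozyme P, is a near-identical paralog that a Lyz2 probe may also bind. Mrc1 had ratios of -0.08, -0.43, -0.43 and -0.29 in double null hearts, 0.06, -0.28, 0.16 and -0.26 in MuRF1 null MuRF2 het hearts, -0.41, -0.40, -0.46 and -0.27 in MuRF1 het MuRF2 null hearts, and -0.21, -0.28, -0.00 and -0.14 in wild type hearts. Each mutant range overlapped the wild type range. Mrc1 differed by -0.15 ± 0.11, 0.08 ± 0.11 and -0.23 ± 0.11, and none passed. With median centring all 3 passed as lower, at -0.73, -0.56 and -0.55 (adjusted p 0.00619, 0.0211 and 0.0361), the second with its sign changed. Relative to the medians of all genes, Mrc1 was then -0.24, -0.05 and -0.21. Cd68 ratios were -0.23 to -0.03 in double null hearts, -0.12 to 0.05 in MuRF1 null MuRF2 het hearts, -0.15 to -0.03 in MuRF1 het MuRF2 null hearts and 0.00 to 0.10 in wild type hearts. Cd68 was well above background on 0 of 4 double null and 1 of 4 MuRF1 null MuRF2 het arrays, against 4 of 4 in each of the other groups. After quantile normalisation of the average intensity between arrays, its Cy5 signal was 1.04-fold higher in wild type than in double null hearts. Without that step its mean log2 Cy5 was 6.17 in wild type and 5.91 in double null hearts. The Cd68 ratio of double null hearts differed from wild type by -0.15 ± 0.07 (limma adjusted p = 0.116). As Cd68 was not well above background on any double null array, its level in those hearts is poorly measured.

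**Figure D3:**
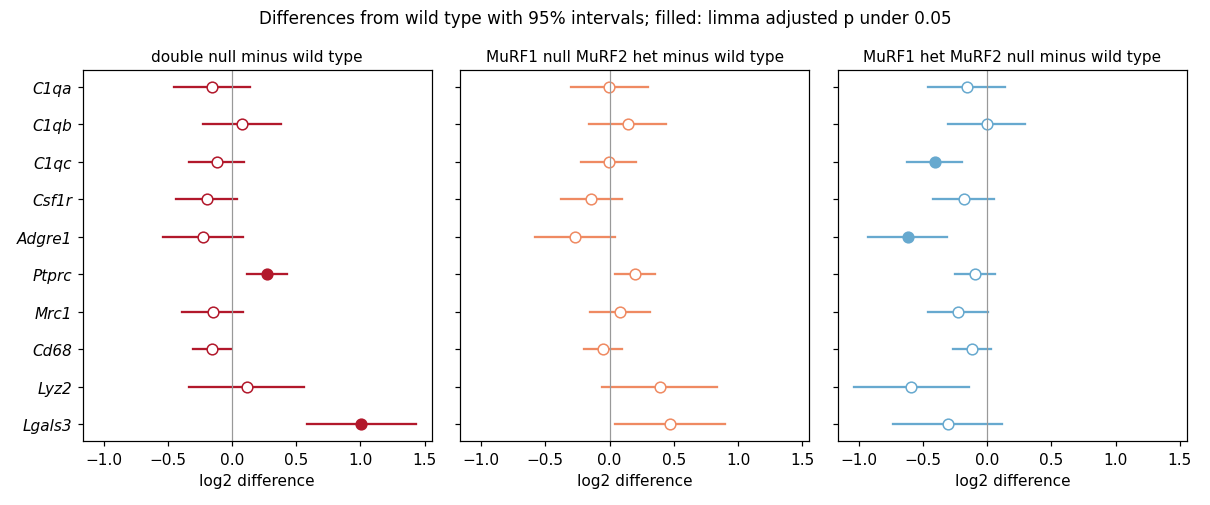
Log2 difference of each of the 10 genes from wild type in the 3 mutant genotypes, with 95% intervals, and filled points for limma adjusted p under 0.05. Lgals3 and Ptprc are filled for double null and Adgre1 and C1qc for MuRF1 het MuRF2 null. With median centring the Ptprc difference turns to -0.06, with the median of all genes at -0.49.

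Against wild type, 2 of the 10 genes rose and 0 fell in double null hearts (limma; at an unadjusted p under 0.05, 2 rose and 1 fell), beside 22.2% of all genes called in either direction, 10.2% rising. A share of 2 in 10 is near that background. The median difference over the 10 genes was -0.14, against 0.01 over all genes. With median centring 0 rose, Ptprc turned to -0.06 and 6 fell, beside 6886 of all 12331 genes called, with the median of all genes at -0.49. With the Feature Extraction ratio 1 rose and 2 fell. In MuRF1 null MuRF2 het hearts 0 of the 10 passed (2 at an unadjusted p under 0.05), beside 1.03% of all genes, with a median of 0.04. Median centring gave 6 falls there, beside 7374 of all 12331 genes called, with the median of all genes at -0.51. In MuRF1 het MuRF2 null hearts 0 rose and 2 fell, beside 1.98% of all genes called, 0.649% rising and 1.33% falling, with a median of -0.21 over the 10, all of which were below 0. Median centring gave 4 falls in that comparison, beside 2551 genes called in all, with the median of all genes at -0.34. These comparisons share the wild type arrays. As hearts were measured in bulk, fewer cells of a type and less RNA per cell cannot be told apart.

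Between mutants, the 10 genes differed mainly against MuRF1 het MuRF2 null hearts. In double null against MuRF1 het MuRF2 null hearts 4 rose and 0 fell, beside 26.4% of all genes called and 13.7% rising: Lgals3 by 1.31 ± 0.20, Lyz2 by 0.71 ± 0.21, Ptprc by 0.37 ± 0.07 and C1qc by 0.29 ± 0.10. Under median centring C1qc turned to -0.19 and Lyz2 to -0.10, and the second Lyz2 probe gave -0.11 (adjusted p = 0.580). Of the 8 fits that left out 1 array, Lgals3 and Ptprc passed in 8, Lyz2 in 5 and C1qc in 0. With Cy5 alone all 4 calls were lost, with Lgals3 at 0.65 (adjusted p = 0.0616) and Ptprc at 0.07 (0.447). The Ptprc call was also lost with the Feature Extraction ratio (adjusted p = 0.199). Adgre1 was 0.39 ± 0.15 higher in this comparison (limma adjusted p = 0.0566), and passed in 7 of 17 other settings. Against the same group, Adgre1 was 0.35 ± 0.15 higher in MuRF1 null MuRF2 het hearts (adjusted p = 0.130), and passed in 1 of 17. In MuRF1 null MuRF2 het against MuRF1 het MuRF2 null hearts 4 rose and 0 fell, beside 8.52% of all genes called, 4.58% rising and 3.94% falling: Lyz2 by 0.98 ± 0.21, Lgals3 by 0.78 ± 0.20, C1qc by 0.40 ± 0.10 and Ptprc by 0.29 ± 0.07, where C1qc turned to -0.09 under median centring. Lyz2 passed in 8 of the 8 fits without an array and the others in 2 each, and the second Lyz2 probe gave 0.01 (adjusted p = 0.960). All 4 calls were lost with median centring, where Lyz2 was 0.11 (adjusted p = 0.918), and with the Feature Extraction ratio. With Cy5 alone Lyz2 passed, while Lgals3 was 0.13 and Ptprc 0.00. In double null against MuRF1 null MuRF2 het hearts 0 of 10 passed (1 at an unadjusted p under 0.05), beside 0.349% of all genes, and Lgals3 was 0.54 ± 0.20 higher with an adjusted p of 0.359. The group of MuRF1 het MuRF2 null hearts was on a slide of its own, so genotype and slide cannot be told apart there.

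Other genes of the complement and myeloid system were taken from lists of 214 genes, of which 146 were measured. In double null against wild type hearts 19 of these rose and 17 fell, beside 22.2% of all genes called, with 15 of the 36 changed in sign under median centring, and the endothelial list supplied 8 of the falls. In the complement component and regulator list 5 of 16 measured genes rose and 0 fell, beside 10.2% of all genes rising, with all but Masp1 (0.08, adjusted p = 0.360) turning below 0 under median centring. Masp1, a lectin pathway protease, rose by 0.48 ± 0.08, C4b, a thioester component, by 0.71 ± 0.13, Clu by 0.44 ± 0.11, and C2, a serine protease of the classical pathway, by 0.57 ± 0.17. C2 was named after its value was seen. Of 3 measured complement receptors 2 fell, beside 12% of all genes falling, Cd93 by 0.94 ± 0.21 and Calr by 0.25 ± 0.08. The list held 10 genes, and C3ar1, C5ar1, C5ar2, Cr2, Itgam, Itgax and Vsig4 were not measured. Calr encodes calreticulin, a chaperone that can also bind C1q.

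Macrophage markers other than the 10 genes gave 3 rises and 0 falls among 23 measured, near the 10.2% of all genes that rose, with all 3 below 0 under median centring and Mpeg1 also with the Feature Extraction ratio: Apoe by 0.53 ± 0.13, Mpeg1 by 0.42 ± 0.11 and Fcgr1 by 0.31 ± 0.09. Cx3cr1, Timd4, Siglec1 and Msr1 were not well above background on any array, and Spi1, which encodes PU.1, was likewise not. In the list of CSF1 ligands and myeloid factors 3 of 10 rose, Cebpa by 0.55 ± 0.15, Csf2rb by 0.44 ± 0.12 and Irf8 by 0.35 ± 0.12 (under median centring the last 2 were below 0 and Cebpa 0.02), and Csf1, the ligand of Csf1r, fell by 0.49 ± 0.14. Cebpa and Csf2rb were well above background on 1 of 4 double null arrays. The galectin list had 1 rise among 7, Lgals1, by 1.55 ± 0.22 (0.12 under median centring, adjusted p = 0.809).

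Markers of other cell types moved in the same comparison, in which 10.2% of all genes rose and 12% fell. The mean ratio of 10 endothelial genes was -0.03 to 0.22 in double null hearts, against 0.68 to 0.74 in wild type hearts, and 8 of the 10 fell. Of 9 fibroblast genes 3 rose, which turned below 0 under median centring, and of 10 cardiomyocyte genes 3 fell. Their part in the results for the 10 genes was not tested. Of 11 measured pan-leukocyte genes 1 rose, Cd52 by 0.37 ± 0.13, and of 8 measured monocyte and neutrophil genes 2 rose, Ngp by 0.45 ± 0.14 and S100a8 by 0.85 ± 0.28, with a list median of 0.78. Cd52 and Ngp turned below 0 under median centring, and S100a8 dropped to 0.06 (adjusted p = 0.491), or 0.13 with Cy5 alone (0.612). Ngp and S100a8 were well above background on 2 of 4 double null and 2 of 4 wild type arrays. In the lymphocyte list 13 of 14 genes were not measured, and the other did not pass. In the lysosome list Psap fell by 1.22 ± 0.17 and Cd63 rose by 0.51 ± 0.08, which turned to -0.82 under median centring. In MuRF1 het MuRF2 null against wild type hearts Cd163, a scavenger receptor of resident macrophages, fell by 0.63 ± 0.15 (adjusted p = 0.0459), with all 4 arrays below all 4 wild type arrays, though it did not pass with Cy5 alone (0.0526) or the Feature Extraction ratio (0.278).

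Against MuRF1 het MuRF2 null hearts, 22 of the 146 list genes rose and 20 fell in double null hearts, beside 13.7% of all genes rising and 12.7% falling. In MuRF1 null MuRF2 het hearts 8 rose and 10 fell, beside 4.58% and 3.94%. Of these calls 4 and 3 changed sign under median centring, with the medians of all genes at -0.15 and -0.16. Of 23 measured macrophage markers other than the 10 genes, 4 rose and 1 fell in double null hearts, and 2 rose and 0 fell in MuRF1 null MuRF2 het hearts. Among these, Pf4, a platelet chemokine that resident macrophages also express, rose by 0.61 ± 0.14 in double null and by 0.58 ± 0.14 in MuRF1 null MuRF2 het hearts, which were 0.01 and -0.05 under median centring. Lyve1, a hyaluronan receptor of resident macrophages and lymphatic endothelium, rose by 0.47 ± 0.14 in MuRF1 null MuRF2 het hearts, but was 0.18 under median centring (adjusted p = 0.379) and 0.14 with Cy5 alone (0.510). Csf1 fell by 0.78 ± 0.14 in double null and by 0.60 ± 0.14 in MuRF1 null MuRF2 het hearts, the second not passing under median centring (-0.70) or with the Feature Extraction ratio (adjusted p = 0.226). Ccl6, a chemokine of myeloid cells, rose by 0.82 ± 0.19 and 0.89 ± 0.19, and passed in neither under median centring (0.148 and 0.198). In the same comparisons 8 and 5 of the 10 endothelial genes fell, and the part of cell makeup was not tested. Against wild type, 0 of 16 complement components passed in MuRF1 null MuRF2 het hearts (limma, 5 rose at an unadjusted p under 0.05) and 0 of 16 in MuRF1 het MuRF2 null hearts (1 fell at an unadjusted p under 0.05).

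**Figure D4:**
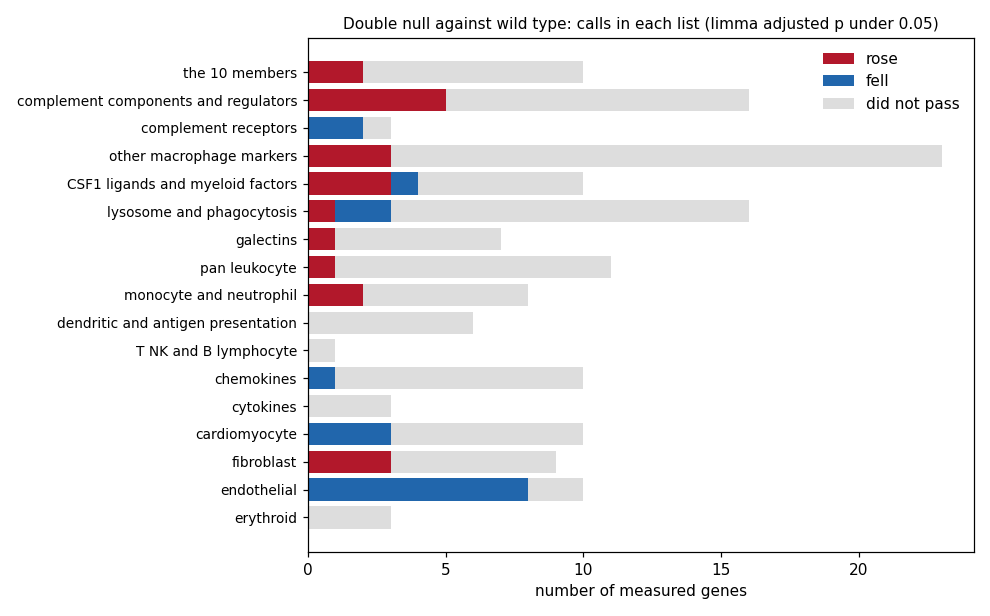
Number of measured genes that rose, fell or did not pass in double null against wild type hearts, for the 10 genes and for 16 lists of pathway and cell type genes. The endothelial list holds 8 falls among 10 genes, and the 10 genes hold 2 rises, of which Ptprc turned below 0 under median centring.

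The genes whose ratios over the 16 arrays were most like the mean of the C1q chains were Ly86 (r = 0.83), Clec4b1 (0.82), Ruvbl2 (0.82), Mrpl18 (0.82), Zfp87 (0.80), Uba3 (0.80), Ms4a7 (0.80) and Lyz1 (0.78). Ly86, Clec4b1 and Ms4a7 are expressed in myeloid cells. Within genotypes r was 0.84 for Ly86, 0.88 for Clec4b1 and 0.77 for Ms4a7. It was 0.87 for Zfp87, 0.85 for Uba3, 0.81 for Ruvbl2, 0.73 for Mrpl18 and 0.69 for Lyz1. Among the other members Lyz2 was nearest to the C1q mean, at 0.70, and Lgals3 farthest, at 0.10. Between chains r was 0.63 for C1qa and C1qb, 0.57 for C1qa and C1qc and 0.32 for C1qb and C1qc. Arrays share the reference, the normalisation and their brightness, and no p is given.

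The C1q cluster lies 2.55 to 2.57 Mb from Trim63, the MuRF1 gene, on chromosome 4. Of 210 genes other than Trim63 measured within 10 Mb of it, the C1q genes included, 19 rose and 32 fell in double null against wild type hearts (24.3%, beside 22.2% of all genes), 4 rose and 4 fell in MuRF1 null MuRF2 het hearts (3.81%, beside 1.03%), while 3 rose and 7 fell where MuRF1 was het and MuRF2 null (4.76%, beside 1.98%). C1qc was the sole chain among these calls, in MuRF1 het MuRF2 null hearts.

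**Figure D5:**
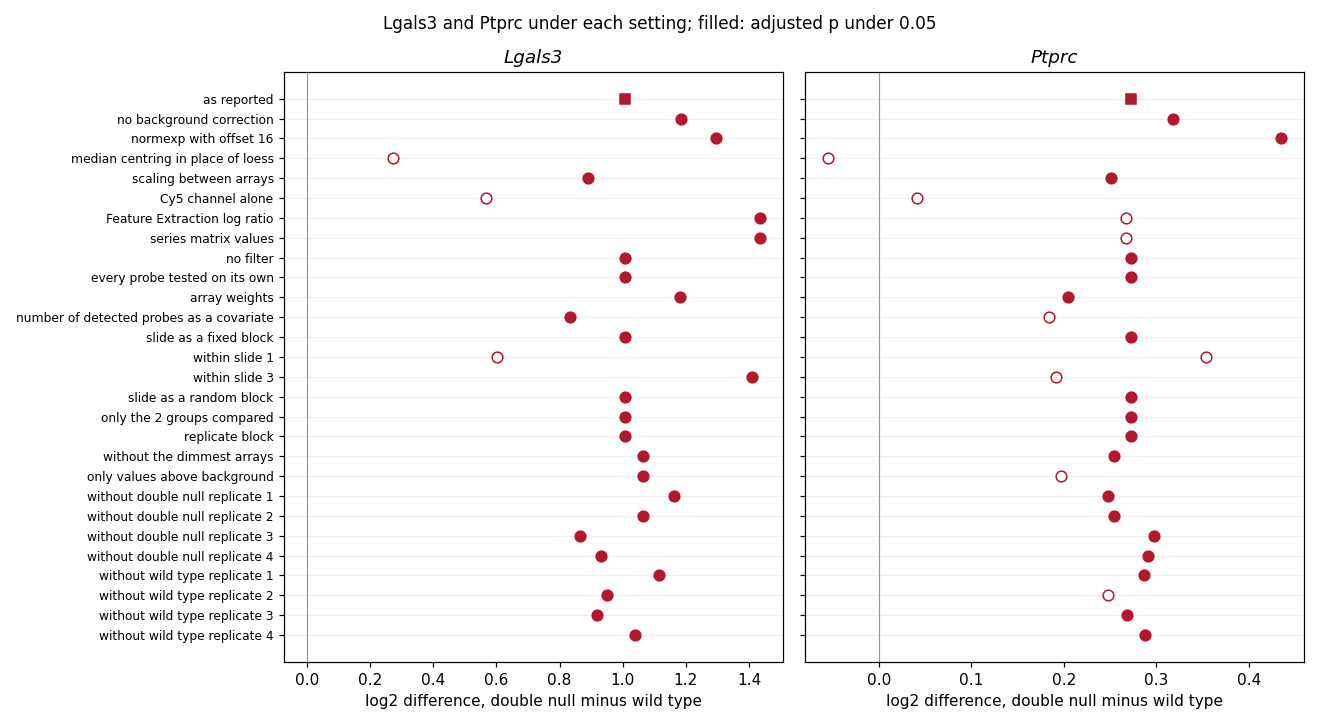
Log2 difference between double null and wild type hearts for Lgals3 and Ptprc as reported (squares), under other settings and with each array left out, with filled points for adjusted p under 0.05. Lgals3 ranges from 0.27 under median centring to 1.44 with the Feature Extraction ratio, and Ptprc turns to -0.06 under median centring.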

How the data were processed

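Agilent 4x44K arrays of 16 hearts were analysed, 4 per genotype, with heart RNA in Cy5 and the pup pool in Cy3, per the labels' channel entries. The labelling protocol in the labels names Cy3 only, and the channel entries were followed. Per the labels' protocols 50 ng of RNA was amplified. Spot intensity and background intensity were deposited as scanner output, made with Agilent Feature Extraction 9.1.3.1 or, for MuRF1 het MuRF2 null arrays, 9.5.3.1, per the file headers. The log10 ratio of Cy5 over Cy3 was also deposited in these files, per the file headers. The authors' deposited value table is on a log2 scale: 71.4% of its values lay within 0.01 of the Feature Extraction log2 ratio minus the probe's median, column medians were -0.028 to 0.024, and the sources do not say what made the rest differ.

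Intensities were background corrected (normexp, offset 50) and loess normalised within arrays in limma 3.58.1 (R 4.3.3). Control and irregular spots had weight 0, irregular spots were then left out, and spots of a probe were averaged. Of 41174 probes, 16810 had Cy5 well above background on at least 4 of 16 arrays. The brightest probe in Cy5 stood for each of 12331 genes. Groups were compared with limma (lmFit, eBayes, two-sided, all 16 arrays in the fit) and Benjamini-Hochberg adjustment over all genes, at an adjusted p under 0.05. The steps were tested on simulated data. The number of arrays limits the precision.

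The members and gene lists were chosen with earlier results of these data known. Named were all members, Trim63, up to 4 passing genes of smallest p per list and comparison, and the 8 genes most like the C1q mean. Some genes that this rule names are not reported here. Array symbols were updated through RefSeq accessions. Same-numbered replicates did not deviate together (24 pairs, r from -0.61 to 0.36, 9 over 0.1), so the numbers were not taken as pairs. Other background corrections, scalings, filters, slide blocks, a brightness covariate and left-out arrays were tried. The fits without the dimmest arrays and with only values above background were chosen after seeing the data.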

Additional observations from a re-analysis of the deposited data

Results flagged for a closer look

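Within a group of 4 arrays, 1 array stood apart from the others in 3 of 40 checks of the 10 genes, by Dixon's ratio of its gap to the group's range at the 95% level. Chance flags about 1 group in 20. C1qc had a ratio of 0.29 on double null array 1, and 0.21 to 0.22 on the others. Cd68 had a ratio of -0.15 on MuRF1 het MuRF2 null array 3, and -0.05 to -0.03 on the others. Ptprc had a ratio of -0.40 on MuRF1 het MuRF2 null array 1, and -0.49 to -0.48 on the others.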

How the results depend on the processing

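Counts of the 10 genes that passed, and their median differences, moved with several settings; the cause was not tested except where fewer genes or arrays entered. For double null against wild type (2 passed, median -0.14), median centring gave 6 and -0.73, Cy5 alone 0, the filter on all 16 arrays 0 (3 genes measured), array weights 7, the brightness covariate 1, slide 1 alone 0 (as for all genes) and 0.068, and only values above background 1 (Ptprc then rests on 1 double null array). For MuRF1 null MuRF2 het against wild type (0 passed, 0.04), median centring gave 6 and -0.58. In both comparisons the 6 genes fell, where median centring called 6886 and 7374 of all 12331 genes. The 7 genes with array weights in double null hearts were 2 rises and 5 falls, beside 8116 genes called in all. For MuRF1 het MuRF2 null against wild type (2 passed, -0.21), 1 passed with no background correction, offset 16, scaling between arrays or every probe tested, 0 with Cy5 alone, the Feature Extraction ratio, the value table, no filter or the replicate block, 4 with median centring and 5 with array weights; the median was -0.56 with median centring, -0.33 with the Feature Extraction ratio and the value table, and -0.59 with the filter on all 16 arrays. In that comparison median centring called 2551 genes in all and array weights 3070. For double null against MuRF1 null MuRF2 het (0 passed, -0.08), the Feature Extraction ratio and the value table gave a median of -0.29. Array weights and the fit without the dimmest arrays gave 1 passing gene there, beside 2872 and 482 genes called in all. For double null against MuRF1 het MuRF2 null (4 passed, 0.18), 2 passed with median centring, the Feature Extraction ratio, the value table, the filter on all 16 arrays or the covariate, and 0 with Cy5 alone. Its medians were -0.076 with median centring, 0.10 with Cy5 alone, 0.29 with the Feature Extraction ratio, the value table and only values above background, 0.39 with that filter, 0.28 with the covariate and 0.27 without the dimmest arrays. For MuRF1 null MuRF2 het against MuRF1 het MuRF2 null (4 passed, 0.30), 2 passed with no background correction, the filter on all 16 arrays or only values above background, 1 with Cy5 alone or the covariate, and 0 with median centring, the Feature Extraction ratio or the value table. Its medians were 0.43 with offset 16, 0.062 with median centring, 0.19 with Cy5 alone, 0.55 with the Feature Extraction ratio and the value table, and 0.40 with that filter. Median centring changed the sign of Ptprc in double null against wild type (-0.056) and Mrc1 in MuRF1 null MuRF2 het against wild type (-0.56). The medians of all genes were -0.49 and -0.51 there. It also changed the sign of C1qc (-0.19) and Lyz2 (-0.10) in double null against MuRF1 het MuRF2 null, with the median of all genes at -0.15. In MuRF1 null MuRF2 het against MuRF1 het MuRF2 null C1qc changed sign (-0.088), with that median at -0.16. With the replicate block, Adgre1 and C1qc in MuRF1 het MuRF2 null against wild type had adjusted p of 0.0671 and 0.0915, and C1qc in double null against MuRF1 het MuRF2 null 0.0716.

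Leaving out each array in turn gave, in the same order of comparisons, 1 to 2, 0 to 0, 0 to 1, 0 to 1, 2 to 3 and 1 to 5 passing genes, with medians of -0.16 to -0.06, -0.02 to 0.12, -0.25 to -0.14, -0.13 to -0.05, 0.14 to 0.27 and 0.25 to 0.35. Dim Cy5 signal limits Cd68 and Ptprc in particular.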
